A study of Mus musculus with 4 samples.

Results

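Principal 10 is 1 of the 15 populations into which the principal cells of the mouse epididymis and vas deferens were divided in the deposited cell annotation, and is a population of the distal cauda, which the study placed between principal 9 and principal 11 along the duct. It was found in the annotation by its number of cells. These were 166 cells of the Cauda library, 16 of the Vas library, 1 of the Corpus library and 0 of the Caput library, together 2.06% of 8880 cells in all and 4.63% of 3956 principal cells. The 166 Cauda cells made up 10.3% of the 1616 cells and 17.8% of the 931 principal cells of the Cauda library. The 4 libraries, 1 for each region, were single-cell 3' libraries made from sperm-depleted suspensions of FVB/NJ males 10 to 12 weeks old, for which the labels name no genotype or treatment, and each library pooled 8 tissue pieces from the same 4 mice. With 1 library per region there was no replicate, so no difference was tested, and every interval given is a 95% interval that covers counting error only. The other populations made mainly of cauda cells served for comparison: principal 8 (486 Cauda, 22 Corpus and 8 Vas cells), principal 9 (100 Cauda, 3 Corpus and 26 Vas cells) and principal 11 (141 Cauda, 3 Corpus and 100 Vas cells).

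Principal cells are the tall, absorptive and secretory cells that line the epididymal duct. Their secretions change from segment to segment and coat the sperm as these mature, and the cauda, the last segment, stores the mature sperm until ejaculation. Secreted proteins enter the endoplasmic reticulum (ER) as they are made, are folded there by chaperones, and leave through the Golgi.

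The cells of principal 10 held 353062 unique molecular identifiers (UMIs, each counting 1 captured mRNA molecule), with a median of 1101 per cell and a range from 239 to 9266. The median was 1197.5 in the Cauda cells and 521 in the Vas cells. It was 641.5 in principal 8, 1516 in principal 9 and 659.5 in principal 11, so that depth differed between the populations compared. The authors' removal of cell-free RNA had taken 5.46% of the UMIs of principal 10, against 6.52% in principal 8, 3.43% in principal 9 and 6.50% in principal 11. A doublet search called 4 cells (2.19%), against 0.775% in principal 8, 0.775% in principal 9 and 2.05% in principal 11. In principal 10, 2 cells carried a barcode that also occurred in another library, against 86 of all 8880 cells. In the first round of clustering, 168 cells (91.8%) had fallen in 1 cluster, which had also received 112 cells of principal 9, 220 of principal 11 and 118 of principal 8.

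The 3 genes given as markers of this population were each at their highest level among the 15 principal populations in principal 10. Levels are UMIs of a gene per 1000000 UMIs of the population (UPM). Wfdc10, which encodes a small secreted protein of the whey acidic protein family of protease inhibitors, was at 31748 UPM (31163 to 32341) in principal 10, 25547 in principal 8, 9664 in principal 9 and 14223 in principal 11. Ptgds, the lipocalin-type prostaglandin D synthase that is abundant in seminal fluid, was at 16394 UPM (15974 to 16822), against 11865 in principal 8, 5965 in principal 9 and 8960 in principal 11. Both genes separated principal 10 from each neighbor beyond counting error, by the least from principal 8. The gap to principal 11 was smaller among Cauda cells alone. Wfdc10 was then at 32025 UPM in principal 10 and 17887 in principal 11, and Ptgds at 16654 and 11798. The Vas cells of principal 11 held 5508 and 2260 UPM of them.

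Spink14, a Kazal-type serine protease inhibitor, did not separate principal 10 from principal 8. Its level was 2093 UPM (1945 to 2250) in principal 10 and 1993 in principal 8, a ratio of 1.05 (0.962 to 1.15). It was 827 UPM in principal 9 and 757 in principal 11, and 0 UMIs were counted in principal 1 to principal 6. Since these genes took part in the clustering, their levels describe the population and do not test it. The deposited annotation gives the library of each cell but no position within the cauda, so its place along the cauda was not checked by these files.

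The epithelial genes Epcam, Krt8, Krt18, Cdh1, Cldn3 and Cldn7 summed to 5767 UPM (5519 to 6023) in principal 10, and markers of cell types other than principal cells were low. The summed levels were 190 UPM for 6 basal cell markers (5443 in basal cells), 229 for 7 clear cell markers (12593 in clear cells), 127 for 5 stromal markers (9326 in stromal cells), 87.8 for 5 muscle markers (60582 in muscle cells), 34.0 for 5 endothelial markers (9736 in endothelial cells) and 31.2 for 7 immune markers (32024 in immune cells). The basal sum was 86.6 UPM in principal 8, 81.5 in principal 9 and 221 in principal 11. The caput markers Gpx5, Rnase10, Lcn8 and Lcn9 summed to 36.8 UPM, and the vas deferens markers Akr1b7, Abcg2, Crygc and Crygb to 90.6 UPM. The caput to corpus markers Lcn5, Rnase9 and Plac8 summed to 881 UPM, mostly Rnase9 at 816, against 580 in principal 8, 252 in principal 9 and 912 in principal 11. The corpus markers Npy, Spint5 and Gdf15 summed to 261 UPM, mostly Npy, against 504, 135 and 93.9. Sperm and red blood cell markers were at 0 UMIs, which allows up to 8.50 UPM (3 UMIs of the population).

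When each cell was thinned to 1000 UMIs, which kept the 99 cells at that depth (54.1%) and left out the 84 below it, Wfdc10 was detected in 100% of cells (96.3 to 100%), Ptgds in 99.0% (94.5 to 100%) and Spink14 in 59.6% (49.3 to 69.3%). All 3 markers were detected in 59 of these 99 cells. The share with Spink14 was 55.8% in principal 8, 41.3% in principal 9 and 31.2% in principal 11. In basal cells of the Cauda library, which should lack these genes and had a median depth of 5360 UMIs, the thinned shares were 1.18% for Spink14, 4.71% for Ptgds and 14.1% for Wfdc10. Without thinning, the shares in principal 10 were 97.3% for Wfdc10, 86.3% for Ptgds and 40.4% for Spink14.

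The plot of cell depth and ribosomal share by population shows both measures for every cell of the 4 populations.

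**Figure D1:**
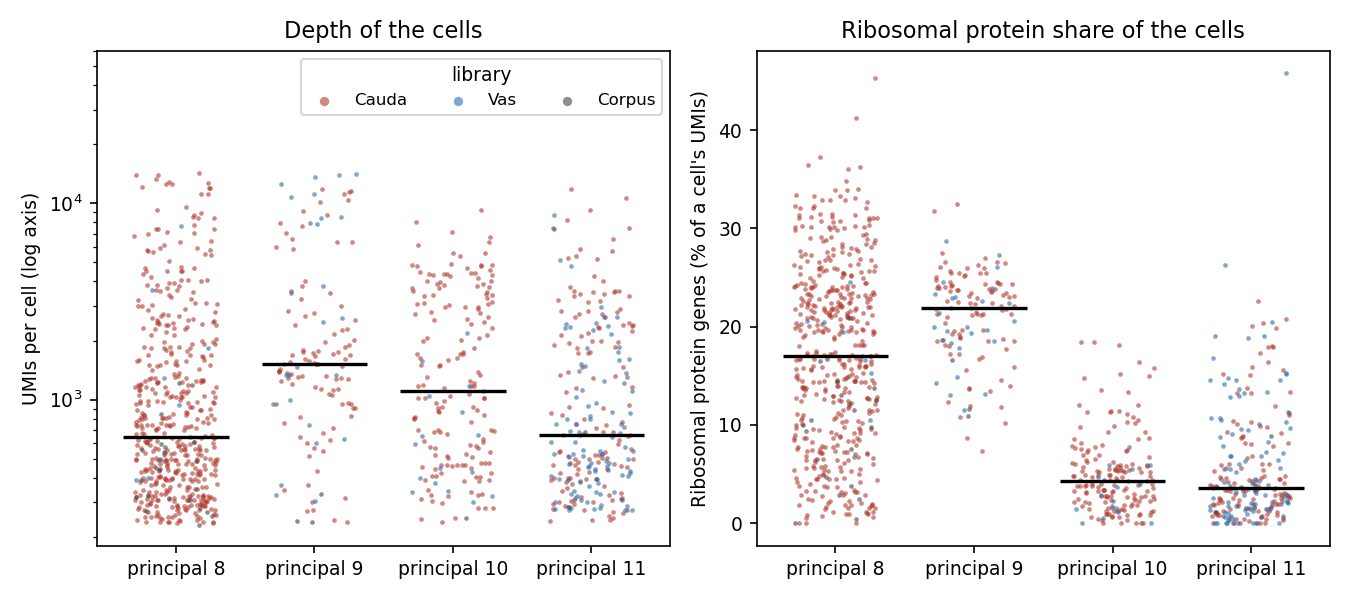
Each point is 1 cell of principal 8, 9, 10 or 11, colored by library, with the median as a black bar. Left, UMIs per cell on a log axis, with a median of 1101 in principal 10. Right, percent of a cell's UMIs on ribosomal protein genes, with medians of 17.0% in principal 8, 21.9% in principal 9, 4.27% in principal 10 and 3.59% in principal 11.

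Crisp1 led the transcripts of principal 10. Crisp1 encodes a cysteine-rich protein that binds to the sperm surface. Its level was 157547 UPM (156241 to 158862), 15.8% of all UMIs of the population, against 48015 in principal 8, 88261 in principal 9 and 195180 in principal 11. The level in principal 10 was thus 3.28 times that in principal 8 and 0.807 times that in principal 11. The 10 most abundant genes held 40.4% of the UMIs of principal 10, compared with 24.3% in principal 8, 23.1% in principal 9 and 37.5% in principal 11.

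The sequences just upstream of Crisp1, Wfdc10 and Ptgds are shown because these are abundant secretory products of the population and each lies upstream of a gene whose level differed between cauda populations. They are the 250 bases before a RefSeq transcript start, 5′ to 3′ on the strand of the gene, from RefSeq on GRCm38.p6 (for Ptgds, a start inside the annotated gene), the same assembly as the authors' mm10. Capitals mark the TATA box letters TATAAA, at position -31 of Crisp1, counted from the transcript start.
Crisp1, chr17:40319208-40319457, minus strand: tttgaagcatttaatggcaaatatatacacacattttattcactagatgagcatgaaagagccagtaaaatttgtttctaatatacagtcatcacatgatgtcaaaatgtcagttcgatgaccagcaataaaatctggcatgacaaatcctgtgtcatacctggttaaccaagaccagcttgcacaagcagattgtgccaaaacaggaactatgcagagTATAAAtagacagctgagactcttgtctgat
Wfdc10, chr2:164655796-164656045, plus strand: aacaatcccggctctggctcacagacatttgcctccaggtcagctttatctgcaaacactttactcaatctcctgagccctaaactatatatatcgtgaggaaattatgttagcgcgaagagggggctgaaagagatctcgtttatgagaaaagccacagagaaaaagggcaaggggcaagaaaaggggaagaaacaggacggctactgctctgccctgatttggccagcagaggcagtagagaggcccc
Ptgds, chr2:25469750-25469999, minus strand: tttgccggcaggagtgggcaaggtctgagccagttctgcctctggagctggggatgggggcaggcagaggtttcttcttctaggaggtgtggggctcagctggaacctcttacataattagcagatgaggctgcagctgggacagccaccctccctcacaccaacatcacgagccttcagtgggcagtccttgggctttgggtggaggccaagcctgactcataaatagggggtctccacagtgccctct

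Neither TATAAA nor the steroid receptor half-site letters AGAACA, searched on both strands, occurred in the Wfdc10 and Ptgds windows. Over all 27025 promoters of this length, TATAAA occurred in 12.97% and AGAACA in 16.2%. Of the 10 genes with most UMIs in principal 10, 7 had a promoter sequence. TATAAA was held by 2 of these 7, Crisp1 on the strand of the gene at -31 and B2m on the other strand at -152. AGAACA was held by 2, B2m and, on the other strand, Wfdc15b. On GRCm38.p6, Crisp1 spans chromosome 17, 40293758 to 40319207, Wfdc10 chromosome 2, 164656046 to 164657368, and Ptgds chromosome 2, 25466709 to 25470110.

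Cd52 (chromosome 4, 134093538 to 134095073), which encodes a small lipid-anchored glycopeptide passed to the sperm surface, was at 53903 UPM, the same within counting error as the 53308 in principal 8 (ratio 1.01, 0.994 to 1.03) and above the 30226 in principal 9 and 31441 in principal 11. The β-defensin gene Defb28 had the same order, with 22005 UPM in principal 10, 21675 in principal 8, 12497 in principal 9 and 9637 in principal 11. B2m, the light chain of MHC class I, was at 25015 UPM, nearer to the 20812 in principal 11 than to the 9161 in principal 8 and 8002 in principal 9. Spink8, another Kazal-type inhibitor, was at 57285 UPM, between the 32844 in principal 8 and the 67065 in principal 11, and was at 41448 in principal 9. D730048I06Rik was at 14765 UPM, above the 6998 in principal 8, 5812 in principal 9 and 9327 in principal 11. Among Cauda cells alone it was at 14857 UPM in principal 10 and 12391 in principal 11, and Defb28 at 22251 and 12037. The Vas cells of principal 11 held 2109 UPM of D730048I06Rik and 4011 of Defb28. Itm2b, a membrane protein of the secretory route, was at 13930 UPM, against 10415, 7620 and 10676 in principal 8, 9 and 11. Wfdc15b, of the same inhibitor family as Wfdc10, was at 10998 UPM, below the 14026 in principal 8 and 11894 in principal 9 and above the 7932 in principal 11.

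By family, the secreted products of principal 10 resembled principal 8 in some groups and principal 11 in others. WFDC-type inhibitors held 4.54% of UMIs in principal 10 (4.47 to 4.61%), against 4.27% in principal 8, 2.39% in principal 9 and 2.42% in principal 11, which made principal 10 the first of the 15 populations. β-Defensins held 4.31% in principal 10, 4.55% in principal 8, 2.83% in principal 9 and 2.20% in principal 11. The order of principal 10 and principal 8 in these families turned under another scaling: for the WFDC-type inhibitors, the ratio of principal 10 to principal 8 was 1.06 as reported and 0.906 when ribosomal protein genes were left out of the totals, and for β-defensins 0.946 as reported and 1.24 with the deposited size factors.

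The CRISP and Ly6-type proteins held 17.0% of UMIs in principal 10 and 20.5% in principal 11, against 5.60% in principal 8 and 9.55% in principal 9. Most of these UMIs were of Crisp1, which alone held 15.8% in principal 10 and 19.5% in principal 11. Of 7 members compared with principal 8, 1 was at least 2-fold higher, against 250 of all 4275 genes (5.85%). Only 1918 genes held the 20 UMIs in principal 10 that this call needs, so 1 of 7 sets the family little apart. The median log2 ratio of the members was 0.51 against principal 8 and 0.08 against principal 11. Kazal and Kunitz-type inhibitors held 7.07% and 7.49% in principal 10 and 11, against 4.57% and 4.86% in principal 8 and 9. Serpins, another family of protease inhibitors, held 0.936% and 0.861%, against 0.427% and 0.400%. Most serpin UMIs in principal 10 were of Serpina1f, at 7656 UPM against 3446 in principal 8, 3157 in principal 9 and 6866 in principal 11. A list of 28 genes drawn up for sperm-binding secreted and surface proteins held 25.6% of UMIs in principal 10. Crisp1, counted again here, made up most of this, and the list also takes in genes such as Itm2b. The list held 13.1% in principal 8, 14.3% in principal 9 and 26.2% in principal 11.

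In prostaglandin synthesis, the cyclooxygenase gene Ptgs2 differed most between principal 10 and principal 8. Ptgs2 was at 949 UPM (850 to 1056) in principal 10, 92.5 in principal 8, 359 in principal 9 and 1594 in principal 11, and the ratio of principal 10 to principal 8 was 10.3 (7.99 to 13.3). Ptgs1, the other cyclooxygenase gene, was at 685 UPM in principal 10 against 307, 224 and 522. Ptges, a prostaglandin E synthase gene, was at 490.0 UPM in principal 10 and 989 in principal 11, with 336 in principal 8 and 351 in principal 9. Within principal 10, Ptgs2 was at 941 UPM (841 to 1050) in the Cauda cells and 1197 in the Vas cells. Within principal 11 it was at 1101 UPM (976 to 1238) in the Cauda cells and 2796 in the Vas cells. In Cauda cells alone the intervals of principal 10 and principal 11 thus overlapped. The list as a whole was mixed: of 13 members measured, 3 lay above and 5 below all 3 others. Lower by 2-fold than all 3 was 1 of 11 compared (9.09%, against 10.0% of all genes), and higher were 0 of 9 (1.56% of all genes). Against principal 11, 6 of 11 were at most 0.5 times as high (12.6% of all genes).

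Against all 3 other cauda populations, 30 of 1918 genes with at least 20 UMIs in principal 10 (1.56%) were at least 2-fold higher in principal 10. In the opposite direction, 169 of 1682 genes with at least 20 UMIs in each of the others (10.0%) were at most 0.5 times as high. Most of the higher genes were scarce, with 20 to 1536 UMIs in principal 10 and a median of 30.5, and their ratios to the highest of the other populations ran up to 2.92, with a median of 2.19. The counting interval lay above 1 against all 3 populations for 27 of the 30, and above 1.5 for 8 (Adam7, Chga, Mme, Prom1, Spink5, Treh, Ubac2 and Vasn). Just inside the 2-fold limit were Lifr at 2.004, Tnpo2 at 2.01 and Adam7 at 2.01. Just outside it were Slc38a4 at 1.995, Gdpd5 at 1.98 and Insr at 1.97, each as the ratio to the highest of the other 3.

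The abundant members of the 30 were surface and secreted proteins. Adam7 (chromosome 14, 68497336 to 68533689), a membrane protein of the ADAM family that the epididymis passes to sperm, was at 4351 UPM (4136 to 4574) in principal 10, 2162 in principal 8, 504 in principal 9 and 1663 in principal 11. Prom1 (chromosome 5, 43993621 to 44102047), a membrane protein of cell protrusions, was at 2300 UPM (2144 to 2464), against 1030, 433 and 1080 in principal 8, 9 and 11. Spink5, a multidomain Kazal-type inhibitor, was at 1218 UPM (1105 to 1339), against 559, 150.2 and 533. Mme (chromosome 3, 63295211 to 63383713), which encodes neprilysin, a peptidase of the cell surface, was at 609 UPM (530.3 to 696), against 166, 115 and 246. These 4 genes each had principal 8 or principal 11 as the nearest population and principal 9 as the lowest.

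In thinned cells, Prom1 was detected in 82.8% of principal 10 (73.9 to 89.7%), against 54.2% in principal 8, 29.3% in principal 9 and 54.8% in principal 11. Mme was detected in 36.4% (26.9 to 46.6%), against 13.2%, 13.04% and 17.2%. Spink5 was detected in 50.5% (40.3 to 60.7%), against 31.1%, 15.2% and 24.7%. Cauda basal cells had 1.18% for Prom1, 2.94% for Mme and 1.76% for Spink5. Cauda clear cells, at a median depth of 5796 UMIs, had Mme in 21.7%, so Mme was not limited to principal cells. Without thinning, the shares in principal 10 were 63.9% for Prom1, 35.5% for Mme and 49.7% for Spink5.

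The scarcer higher genes included Chga, which encodes chromogranin A, a protein of secretory granules, with 39 UMIs or 110.5 UPM (78.6 to 151) in principal 10, 43.9 UPM in principal 8, 16.6 in principal 11 and 1 UMI in principal 9. Those UMIs lay in 5.46% of the cells of principal 10, against 2.13% of principal 8, so few cells carried the value, and the counting interval does not cover differences between cells. Treh, the enzyme that splits trehalose, was at 99.1 UPM (69.1 to 138), against 37.96 in principal 8, 30.4 in principal 11 and 1 UMI in principal 9. Vasn, a membrane protein that binds TGF-β, was at 178 UPM (137 to 228), against 59.3, 40.7 and 69.1 in principal 8, 9 and 11. Uggt1, which senses misfolded glycoproteins in the ER, was at 207 UPM (162 to 260), against 75.9, 53.5 and 93.9. Gtf2h1, a subunit of a general transcription factor, had the farthest ratio, 2.92, on 22 UMIs. Itga6, a laminin-binding integrin subunit, was at 59.5 UPM on 21 UMIs against 22.5, 17.8 and 22.1. It is also 1 of the 6 basal cell markers above and was at 245 UPM in basal cells. Whether its UMIs in principal 10 came from basal cells was not tested. The rest of the 20 with the largest ratios were Sema3c, Galnt10, Mboat2, Dennd4c, Disp2, Ubac2, Apmap, Fbrsl1, Avl9, Fam83h and Nim1k, with 20 to 93 UMIs each. Across the 15 populations, 18 of the 30 had their highest level in principal 10 and 8 in principal 6, a population of the corpus. By their selection the 30 could not be highest in principal 8, 9 or 11. The count of 18 is therefore not comparable with the 237 of all 1918 genes (12.4%) that were highest in principal 10. In principal 6, 483 of all 1918 genes (25.2%) were highest, so the 8 are no trait of the 30.

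**Figure D2:**
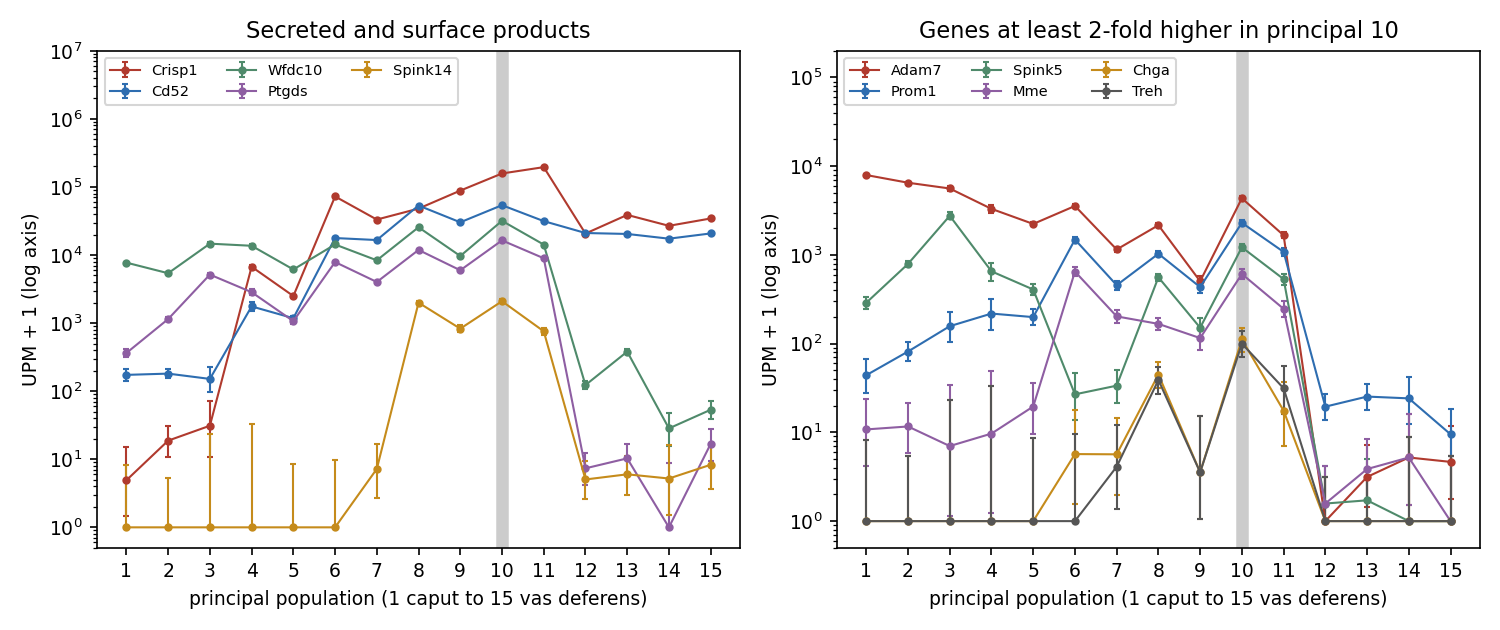
Level (UPM + 1, log axis) of 5 secreted or surface products (left) and of 6 of the 30 genes higher in principal 10 (right) in the 15 principal populations, numbered from the caput to the vas deferens, with 95% counting intervals; the gray band marks principal 10. Crisp1 continues upward to principal 11, whereas Cd52, Wfdc10, Ptgds and Spink14 dip in principal 9 and are at their highest in principal 10, Cd52 and Spink14 with principal 8 at the same level within counting error.

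The library of origin moved with these calls. When only cells of the Cauda library were kept, 22 genes were higher than in all 3 others, 15 of them among the 30, and 63 genes were lower, 60 of them among the 169. Mme, Prom1, Spink5 and Adam7 were then at ratios of 1.88, 1.67, 1.71 and 1.95 to the highest other population and below the 2-fold limit. Gtf2h1 at 2.79, Vasn at 2.68, Chga at 2.52, Treh at 2.37 and Uggt1 at 2.21 stayed above it. Principal 11 had 41.0% of its cells from the Vas library, and its Cauda cells had 1411 UPM of Prom1 and 330.2 of Mme, against 301 and 37.7 in its Vas cells.

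The scaling also moved these counts. The median log2 ratio of all genes compared was -0.26 against principal 8, -0.25 against principal 9 and -0.13 against principal 11. These medians turned with the deposited size factors to 0.19, 0.18 and 0.22, and in Cauda cells only they were -0.25, 0.10 and 0.08. With the deposited size factors 180 genes were higher and 77 lower than in all 3 others, with 24 of the 30 and 62 of the 169 among them. With the 20 genes of most UMIs left out of the totals, 70 were higher, among them all 30, and 120 were lower, all of them among the 169.

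Among the lower genes, 18 of the 169 (10.7%) were components of the respiratory chain or ATP synthase, which made up 4.10% of the genes compared. Ribosomal protein genes were 11 of the 169 (6.51%) and 4.58% of the genes compared. Cox14, an assembly factor of cytochrome c oxidase, was at 19.8 UPM (7.97 to 40.9) in principal 10, 212 in principal 8, 275 in principal 9 and 155 in principal 11. Cycs, which encodes cytochrome c, was at 19.8 UPM (7.97 to 40.9), against 221, 522 and 127. Atp5c1, a subunit of the ATP synthase, was at 11.3 UPM (3.09 to 29.0), against 171, 257 and 85.7. Uqcrb, a subunit of complex III, was at 22.7 UPM, against 152, 277 and 129.9. The rest of the 10 with the smallest ratios were Cyb5a, 1110001J03Rik, 2700060E02Rik, Tmem256, Gm10094 and Atp5g2, with 4 to 9 UMIs each in principal 10.

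Of 69 respiratory chain and ATP synthase genes compared with all 3 others, 18 (26.1%) were lower in principal 10, against 10.0% of all genes compared (Atp5c1, Atp5e, Atp5g1, Atp5g2, Atp5h, Atp5j2, Cox5b, Cox6b1, Cox6c, Cox7b, Cox7c, Cycs, Ndufa11, Ndufa5, Ndufb2, Ndufv3, Uqcr10 and Uqcrb), and 0 of the 55 compared for it were higher, against 1.56% of all genes. In Cauda cells only, 9 were lower than in all 3. The list held 1.07% of UMIs in principal 10 (1.03 to 1.10%), against 2.72% in principal 8, 3.43% in principal 9 and 1.62% in principal 11. Its median log2 ratio was -1.33 against principal 8, -1.82 against principal 9 and -0.65 against principal 11, below the medians of all genes. Under every alternative tried the summed ratio stayed below 1, from 0.334 to 0.574 against principal 8, 0.257 to 0.413 against principal 9 and 0.634 to 0.901 against principal 11. Members were not equally low. Cox6a1 was at 555 UPM in principal 10 and 536 in principal 8, a ratio of 1.04 (0.871 to 1.23), whereas Cox4i1 was at 1178 UPM against 3133 and Cox6c at 544 against 2137.

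Ribosomal protein genes held 5.19% of UMIs in principal 10 (5.12 to 5.27%), against 19.3% in principal 8 (19.2 to 19.4%), 21.6% in principal 9 and 7.42% in principal 11 (7.33 to 7.51%). Of these genes, 74 of 80 were at most 0.5 times as high as in principal 8, 76 of 78 as in principal 9 and 11 of 77 as in principal 11. In the comparisons of all genes, 22.0% of 4275, 30.6% of 2640 and 12.6% of 2398 were lower in the same way. Lower than in all 3 were 11 of 77 (14.3%, against 10.0% of all genes compared), and 7 in Cauda cells only. The 11 were Rpl17, Rpl19, Rpl23a, Rpl34, Rpl35, Rpl36, Rps13, Rps15a, Rps24, Rps27l and Rps28. Rps28, at 144.5 UPM against 2009, 1894 and 492, had the smallest ratio to principal 8 among those named, 0.0719 (0.0533 to 0.0950), while Rpl13 was at 2645 UPM against 4795, 4814 and 2318. The authors ignored reads that aligned to several places, so the levels of genes with near-identical copies, ribosomal protein genes and Gm10094 among them, are uncertain. The difference from principal 8 and principal 9 kept its direction under every alternative scaling and choice of cells tried, with ratios of the summed levels from 0.199 to 0.384. The difference from principal 11 did not, with a ratio of 0.700 as reported and 1.11 with the deposited size factors, under which 0 ribosomal protein genes and 9 respiratory chain genes were lower than in all 3.

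ER chaperones and genes of the unfolded protein response stood the other way. They held 2.49% of UMIs in principal 10 (2.44 to 2.54%), against 1.23% in principal 8, 1.08% in principal 9 and 2.01% in principal 11. Of 26 members measured, 22 had a ratio above 1 to all 3 others, yet 0 of 25 reached 2-fold against all 3. At least 2-fold higher were 10 of 26 against principal 8 (5.85% of all genes), 12 of 25 against principal 9 (20.3%) and 0 of 25 against principal 11 (4.13%). These shares of all genes are low in part by the rule. They are 250 of 4275, 536 of 2640 and 99 of 2398 genes. Only 1918 genes held the 20 UMIs in principal 10 that a higher call needs, among them 25 of this list. Hspa5, the main ER chaperone, was at 6560 UPM (6295 to 6832) in principal 10, 2507 in principal 8, 1724 in principal 9 and 5691 in principal 11. Calr, a lectin chaperone, was at 3620 UPM against 1590, 1357 and 2799, Pdia6, which forms disulfide bonds, at 2178 against 872, 667 and 1334, and Hsp90b1 at 2116 against 1005, 873 and 1475.

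The 2 members of this list that were lower than in all 3 populations were the stress-induced transcription factor genes Atf4 and Ddit3. They were 9.52% of the 21 compared, near the 10.0% of all genes, and in Cauda cells only 1 member was lower than in all 3. Atf4 was at 93.5 UPM (64.3 to 131) in principal 10, 337 in principal 8, 537 in principal 9 and 227 in principal 11. Ddit3 was at 70.8 UPM (45.8 to 104), against 402, 631 and 248.7. Under every alternative scaling and choice of cells tried, the summed ER list stayed above principal 8 (ratios of 1.72 to 2.62), principal 9 (1.91 to 3.06) and principal 11 (1.11 to 1.44).

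The machinery that carries proteins into and out of the ER was mixed. Its 33 genes held 0.918% of UMIs in principal 10 against 0.817% in principal 8, 0.783% in principal 9 and 0.855% in principal 11. The median log2 ratio of the members was 0.57, 0.62 and -0.02 against principal 8, 9 and 11. For all genes it was -0.26, -0.25 and -0.13. Against principal 8, 4 of 32 members were at least 2-fold higher and 5 at most 0.5 times as high. The same calls took 250 and 941 of all 4275 genes. Sec61b and Sec61g, small subunits of the channel through which proteins enter the ER, were at 62.3 and 221 UPM in principal 10, against 418 and 992 in principal 8, whereas Sec61a1, its large subunit, had a ratio of 1.48 to principal 8.

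The differences from principal 8 and 9 were present at every depth. In cells with fewer than 1000 UMIs, from 1000 to under 3000 UMIs and at least 3000 UMIs, the ribosomal share was 4.73%, 4.94% and 5.39% in principal 10 (84, 50 and 49 cells), against 17.0%, 16.4% and 21.2% in principal 8. In principal 11 it was 4.64%, 7.30% and 8.70%, so that the shallowest cells of principal 10 and 11 were alike within counting error. The ER chaperone share was 1.76%, 2.72% and 2.54% in principal 10 and 1.40%, 2.31% and 2.05% in principal 11. Over single cells, the ribosomal share ran from 0 to 18.5% in principal 10 with a median of 4.27%, and 109 cells (59.6%) were below 5.03%, the 10th percentile of principal 8 and 9 together. Below that value were 154 cells (63.1%) in principal 11, 65 (12.6%) in principal 8 and 0 in principal 9.

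**Figure D3:**
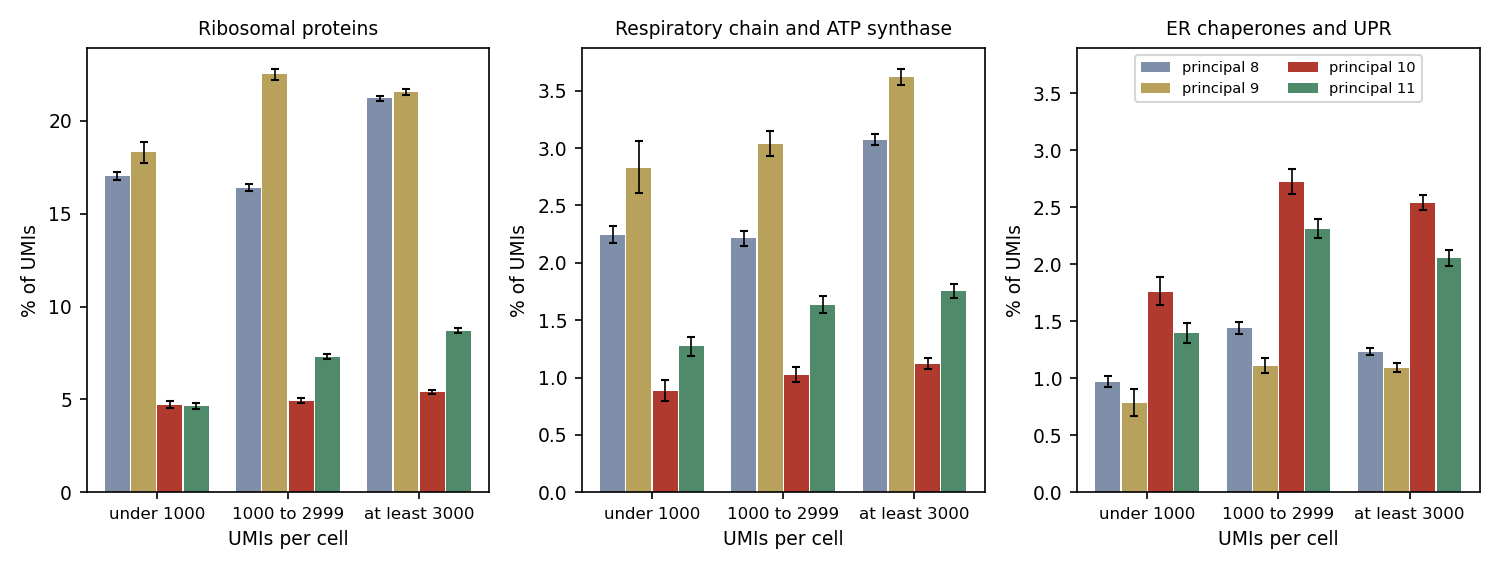
Percent of UMIs on ribosomal protein genes (left), respiratory chain and ATP synthase genes (middle) and ER chaperone and unfolded protein response (UPR) genes (right) in cells of principal 8 to 11 grouped by UMIs per cell; error bars are 95% counting intervals. In each depth group principal 10 (red) is below principal 8 and 9 for the first 2 groups of genes and above them for the third.

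Along the duct, a low ribosomal share was not limited to the cauda. Principal 10 ranked the 14th of the 15 populations, above principal 4 with 2.19% and just below principal 6 with 5.23%. For the respiratory chain it was also the 14th, above principal 4 with 0.776%, and for ER chaperones it was the third, after principal 4 with 3.15% and principal 6 with 2.60%.

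Kept to cells of the Cauda library, the summed shares of the 3 groups kept their order, while fewer of their genes were lower than in all 3, as given above: ribosomal proteins held 5.26% in principal 10, 19.5% in principal 8, 22.0% in principal 9 and 6.85% in principal 11, the respiratory chain 1.07%, 2.72%, 3.19% and 1.34%, and ER chaperones 2.50%, 1.23%, 1.11% and 2.26%.

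**Figure D4:**
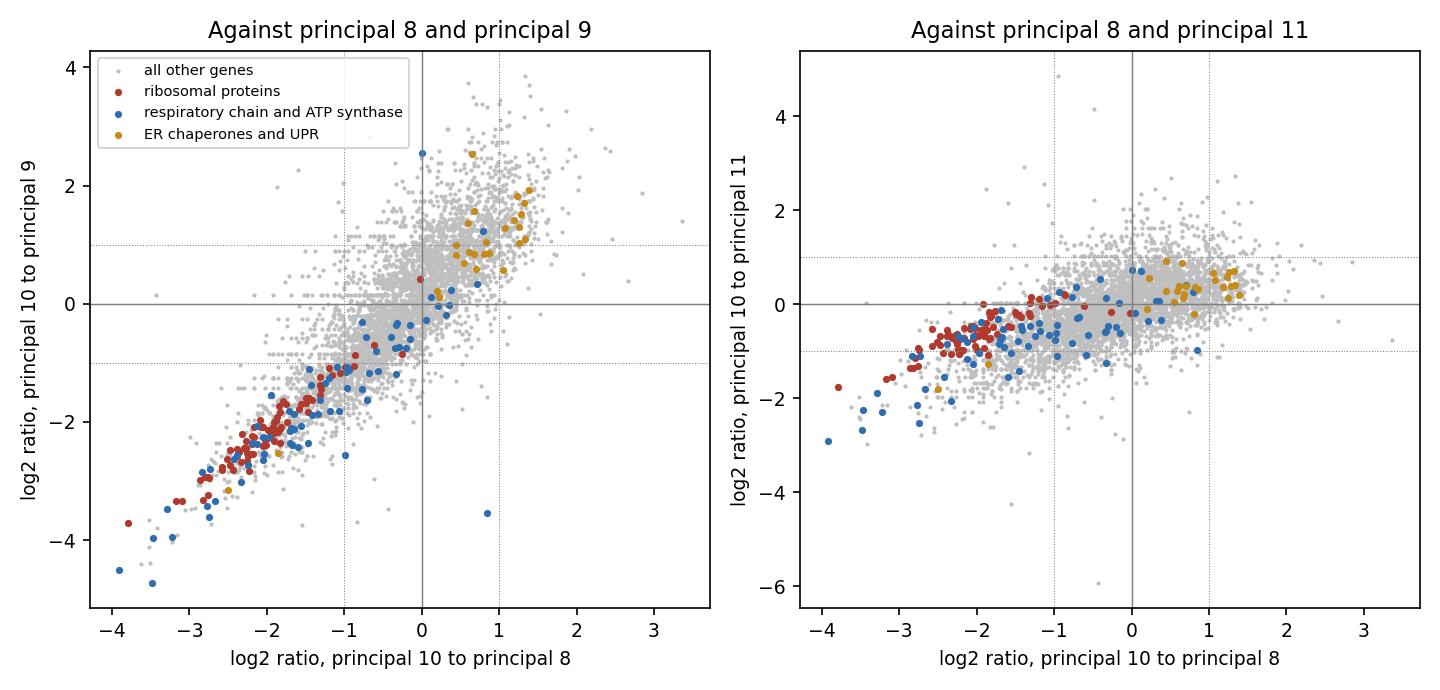
Each point is a gene, placed by the log2 ratio of its level in principal 10 to principal 8 (horizontal) and to principal 9 (left) or principal 11 (right), with ribosomal protein (red), respiratory chain and ATP synthase (blue) and ER chaperone and UPR genes (orange) marked; dotted lines mark 2-fold. Both axes share the counts of principal 10, so the slant of the cloud is no result in itself; red and blue points lie mainly to the lower left, orange points mainly to the upper right.

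In the pairwise comparisons, the share of genes with a 2-fold difference was smallest against principal 11. Against principal 8, 250 of 4275 genes (5.85%) were at least 2-fold higher and 941 (22.0%) lower. Against principal 9, 536 of 2640 (20.3%) were higher and 807 (30.6%) lower, and against principal 11, 99 of 2398 (4.13%) were higher and 303 (12.6%) lower. With the deposited size factors the same counts were 620 higher and 651 lower, 804 and 571, and 344 and 187, so the balance of higher and lower genes depended on the scaling. With Cauda cells only they were 254 and 905, 564 and 600, and 94 and 95. The balance also depended on the UMI minimum, which falls on the higher population. Principal 8 held 842921 UMIs against 353062 in principal 10, so its genes reached 20 UMIs at a lower level. Of the 4275 genes, only the 1918 with at least 20 UMIs in principal 10 could be called higher. Of 203 genes higher than in both principal 8 and 9, 30 were also higher than in principal 11, and of 563 lower than in both, 169 were also lower than in principal 11. The profile of log2(UPM + 10) correlated with that of principal 11 at Pearson r = 0.862 and Spearman rho = 0.711 over 2398 genes, and with principal 8 at 0.835 and 0.737 over 4275 genes. Principal 6 followed at 0.706 and 0.625 over 3605 genes, and principal 9 at 0.662 and 0.432 over 2640. These are correlations across genes of pools from the same mice and describe likeness only.

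Single genes set principal 10 apart from principal 11. Npy, which encodes neuropeptide Y, was at 241 UPM (192 to 298) in principal 10, 465 in principal 8, 115 in principal 9 and 8.29 in principal 11, where 3 UMIs were counted, and the ratio to principal 11 was 29.0 (9.61 to 144). Bsph2, a gene of the binder of sperm protein family, was at 147 UPM against 206 in principal 8 and 5.53 in principal 11, and the β-defensin gene Defb38 at 209.6 UPM against 548 and 27.6. In the other direction, Akr1b7, an aldo-keto reductase gene of the vas deferens, was at 62.3 UPM (39.1 to 94.3) in principal 10 and 3779.6 in principal 11, the transporter gene Abcg2 at 22.7 and 1113, and Plac8 at 14.2 and 271. Aqp2, a water channel gene, had 0 UMIs in principal 10 and 437 UPM in principal 11, so its level in principal 11 was at least 51.4-fold higher, by the floor of 3 UMIs in principal 10. These 4 differences moved with the library. Among Cauda cells alone, Akr1b7 was at 23.5 UPM in principal 10 and 330.2 in principal 11, Abcg2 at 1 UMI and 2 UMIs, Plac8 at 14.7 and 47.2 UPM and Aqp2 at 0 UMIs and 5 UMIs, whereas the Vas cells of principal 11 held 12089, 3775, 810 and 1440 UPM of them. For Npy, Bsph2 and Defb38 the Cauda cells alone gave 240.4, 141 and 211 UPM in principal 10 against 11.8, 7.86 and 31.4 in principal 11.

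Within principal 10 the vas deferens genes followed the library. Akr1b7 was at 23.5 UPM in the 166 Cauda cells (8 UMIs) and 1197 in the 16 Vas cells (14 UMIs), a ratio of 51.0 (19.98 to 140.4). Abcg2 was at 1 UMI and 7 UMIs in the same cells. In vas deferens principal cells of the Vas library Akr1b7 was at 54160 UPM, and whether the Vas cells of principal 10 expressed it or carried free RNA of their library was not tested. Adam7 was at 4471 UPM in the Cauda cells and 940 in the Vas cells (11 UMIs), and Prom1 at 2357 and 684 (8 UMIs). Crisp1 was alike at 157223 and 166952 UPM, and Spink8 was at 56316 and 85228. The Vas cells had ribosomal, respiratory chain and ER chaperone shares of 3.33%, 0.829% and 2.25%.

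Transcript length moved with the differences. The longest protein-coding transcript had a median length of 4717.5 nt for the 30 higher genes, against 2743 nt for all 1911 genes with a length among those compared. It was 1240 nt for the 169 lower genes, against 2107 nt for 1673 compared, and 1329 nt when the ribosomal and respiratory chain genes were left out. Against principal 8, the median log2 ratio was -1.17 for genes with transcripts up to 1000 nt, -0.59 above that and up to 2000 nt, -0.16 above that and up to 4000 nt and 0.09 above 4000 nt. Against principal 9 it was -1.47, -0.85, 0.06 and 0.67, and against principal 11 it was -0.51, -0.42, -0.05 and 0.15. In Cauda cells only, the medians against principal 11 were -0.20, -0.08, 0.15 and 0.24. The part of transcript length in the differences of any gene group was not tested.

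**Figure D5:**
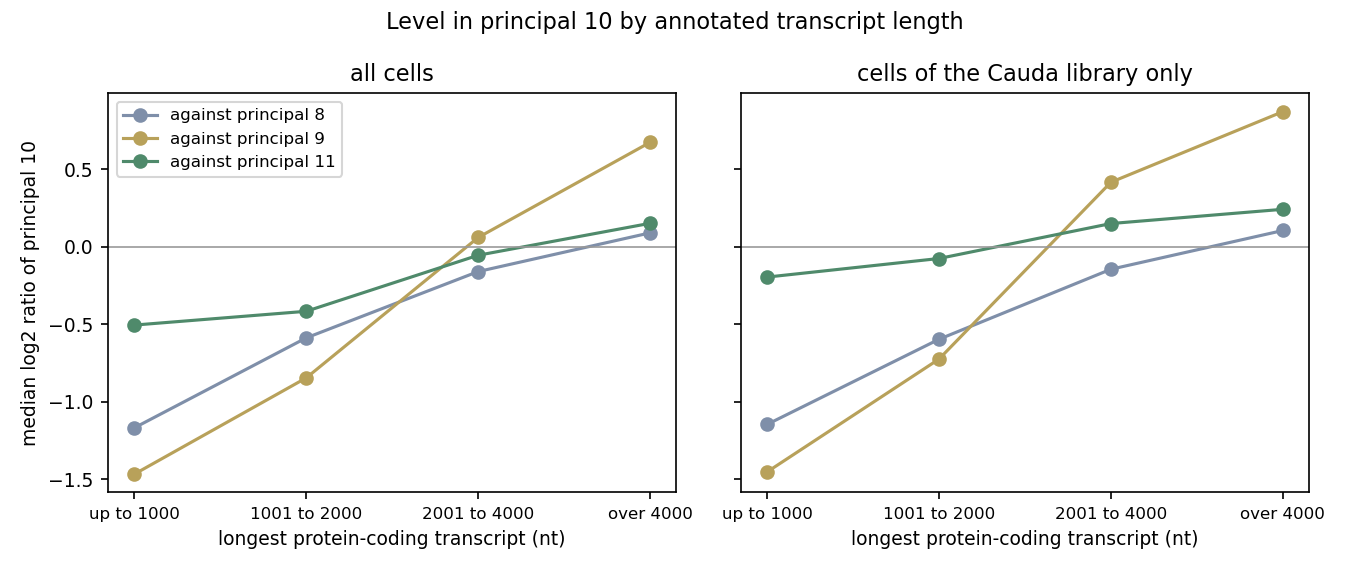
Median log2 ratio of the level in principal 10 to principal 8, 9 and 11 by length of the longest annotated protein-coding transcript, in all cells (left) and in cells of the Cauda library (right). Against principal 8, for example, the medians in all cells go from -1.17 up to 1000 nt to 0.09 above 4000 nt.

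The 99 cells of principal 10 with at least 1000 UMIs differed among themselves more than counting alone gives for many genes. For 175 genes with a thinned mean of at least 0.5 UMIs, the ratio of variance to mean, which is 1 for pure counting, had a median of 1.76 and was at least 3 for 21. This ratio rises with abundance where cells differ by a fixed proportion. It was 15.2 for Spink8, 14.3 for Crisp1, 10.8 for Cd52, 10.3 for D730048I06Rik, 10.2 for Ptgds, 8.36 for Gm17252, 8.35 for Wfdc10, 5.54 for Wfdc15b, 5.35 for Defb28 and 4.19 for Hspa5. The 21 also held Krt8, a keratin gene, Rpl26 and the metallothionein gene Mt1, at 3.46, 3.18 and 3.06. Crisp1 ran from 77 to 308 of a cell's 1000 UMIs with a median of 155, Spink8 from 11 to 166 with a median of 51, and Wfdc10 from 3 to 110 with a median of 30. Gm17252 was present in 29.3% of cells with up to 23 UMIs, and Ptgs2 in 39.4% with up to 14, while B2m, nearly as abundant as Wfdc10, had a ratio of 3.57. Thinned to the same depth, a cell of principal 10 had a median of 412 genes, as in principal 11, against 454 in principal 8 and 435 in principal 9.

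Over the 15 principal populations, the genes most like the 3 markers were sought among 7792 genes by Spearman's rank correlation of their levels. For Ptgds they were Ces5a (rho = 0.975), a carboxylesterase gene known for its expression in the epididymis, Wfdc6a (0.960) and the ceramide synthase gene Cers5 (0.957). For Wfdc10 they were Ceacam10 (0.946), Ptgds (0.936) and Wfdc6b (0.929), and for Spink14 Rabac1 (0.939), Mb (0.927) and Tmem205 (0.913). Ces5a was at 3793 UPM in principal 10, against 2150 in principal 8, 1204 in principal 9 and 2335 in principal 11, and Ceacam10 at 3787 against 1751, 1390.0 and 2205. Both were higher in principal 10 than in each other cauda population beyond counting error. The ratios to the highest of these were 1.62 (1.49 to 1.77) and 1.72 (1.57 to 1.88). Ces5a and Ceacam10 were chosen by likeness to markers that are highest in principal 10. Their high level there was thus largely set by the search and is no separate support.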

How the data were processed

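Per the labels and the study's methods, the authors demultiplexed reads with bcl2fastq, aligned them with HISAT2 2.0.4 to mm10, counted UMIs on RefSeq genes with ESAT, merged UMIs that differed at 1 base, ignored reads aligning to several places, and removed ambient RNA with a modified SoupX. The authors deposited UMI counts, whole numbers for 16892 genes over 8880 cells, and the deposited table of cells gives the library, cluster and population of each cell and its size factor, a score the authors computed with scran.

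The deposited populations were used without re-clustering, and population numbers were taken from their cell counts. The members and gene lists were chosen with earlier results of these data known. UMIs were summed over the cells of a population and divided by their total. The 95% intervals are exact Poisson intervals (levels), exact intervals of the conditional binomial (ratios) and Clopper-Pearson intervals (shares), for counting error only. A gene was called at 2-fold if the higher population of a pair held at least 20 UMIs (principal 10 for genes higher than all 3 others, each of the 3 others for lower genes), and a level of 0 was raised to a floor of 3 UMIs. Gene models that overlap or share reads may be under-counted. Doublets were called per library from simulated doublets in 30 components of 1500 genes at 0.8% per 1000 cells, which recovered 35.2% of simulated doublets in the Cauda library, and were kept. In simulated counts of all 16892 genes for the comparison with the 3 other cauda populations, 0 of 50 genes with a true 1.5-fold difference, 41 of 50 with 3-fold, 50 of 50 with 4-fold and 50 of 50 with 6-fold were called, and 0 of 1692 unchanged genes. The simulation gave the 3 other populations a shared profile and added no spread between cells beyond counting. In the data these populations differed and cells varied more. The 0 of 1692 therefore does not give the rate of false calls in the data.

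Named are the 3 markers, the 20 genes with the largest and the 10 with the smallest ratio to all 3 others, and the 3 most like each marker. The 10 most abundant and the 10 most variable genes are named too. The rule also took the 5 farthest each way from principal 9 and 11 and called or leading members of the lists. Those farthest from principal 9 are not set out, those from principal 11 are given in part, and several lists are not described. Among these lists, 2 of 11 glutathione peroxidase and transferase genes compared were lower than in all 3 (18.2%, against 10.0% of all genes). Sec61b, Sec61g, Sec61a1 and genes at the 2-fold limit were named after their values were seen. Transcript lengths come from GENCODE vM21 and promoters from RefSeq. Tools were Python 3.11.15 with pandas 2.3.3, scipy 1.17.1, scikit-learn 1.9.0, matplotlib 3.10.9 and numpy 2.4.6. The libraries held 4408989 (Caput), 6602962 (Corpus), 4882822 (Cauda) and 10744928 (Vas) UMIs.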

Additional observations from a re-analysis of the deposited data

How the results depend on the processing

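The number of genes higher than in all 3 other cauda populations was 30 and that of lower genes 169. Other levels or scalings gave 56 higher (mean over cells), 58 (median of ratios), 180 (deposited size factors), 70 (20 top genes left out of the totals) and 18 (ribosomal genes left out, added after seeing the data), and 77 lower (size factors) or 63 (Cauda cells only). A limit of 1.5-fold gave 175 and 381, 4-fold 0 and 22, at least 10 UMIs 103 and 287, at least 50 UMIs 9 and 68, and no minimum 190 and 360. Against principal 8, higher genes numbered 377 (median of ratios), 620 (size factors) and 522 (without the 20 top genes), the last with 571 lower. Against principal 9, 805 were higher without the 20 top genes. Against principal 11, 175 were higher by the mean over cells, 344 higher and 187 lower with size factors, and 95 lower in Cauda cells only. The cause was not tested for any of these, beyond the fewer genes or cells that a limit leaves.

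The ER chaperone share of 2.49% was 2.59% in cells with at least 1000 UMIs, 2.15% as a mean over cells, and 1.76% and 2.72% in cells under 1000 and from 1000 to under 3000 UMIs. The ribosomal share of 5.19% was 4.97% without called doublets, 4.96% as a mean over cells, and 4.73%, 4.94% and 5.39% by depth. The respiratory chain share of 1.07% was 1.01% as a mean over cells, and 0.884%, 1.02% and 1.121% by depth. The share of cells with Ptgds was 94.2% at 500 UMIs and 86.3% without thinning. That with Spink14 was 38.7% at 500 UMIs, 40.4% without thinning and 44.4% when 2 UMIs were required. Ratios to principal 11 turned above 1 for Ndufa5 by the mean over cells (1.07), and with size factors for Ndufa5 (1.34), Btf3 (1.43), Atp5e (1.07) and Cox6c (1.01). Of 1120 ratios of named genes under other settings, 850 stayed within their counting interval, 265 moved outside it with the same direction and these 5 reversed. No paired analysis was possible because each region had 1 library and no test was made. With 1 library per region and 353062 UMIs in principal 10, differences between mice, and genes under 8.50 UPM, could not be measured.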
